A study of Mus musculus with 7 samples.

Results

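Glycolysis, the pentose phosphate pathway and glucose uptake were followed through 40 named genes, chosen by symbol as the enzymes, transporters and glucose-responsive transcription factors of these routes. Of these, 35 have a row in the deposited table of 23930 genes, and all 35 had a mean of at least 1 RPM (the reads of a gene scaled to a common library total), so none was lost to a filter. Gapdh, Pgk1, Pgam1, Eno1 and Pfkfb2 were not analysed here.

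Pax7-GFP cells sorted from mouse hind leg muscle gave bulk RNA for 7 libraries, 3 in normocapnia (NC1, NC2 and NC3) and 4 in hypercapnia (HC1 to HC4). All mice carried the inducible Pax7-GFP reporter and received tamoxifen, which lets a Cre recombinase made from the Pax7 gene switch on GFP for good, so that descendants of a labeled satellite cell stay green whatever they become. Mice entered room air (normocapnia) or a chamber with 10% CO2 (hypercapnia) at 12 weeks of age and were collected 4 weeks later, at 16 weeks. The methods add cardiotoxin injury of the leg muscles in both groups 3 days before collection, which the sample labels do not mention, while the title of the deposited table carries a time of 40 hours; this difference was not resolved here. The strain labels give a different C57BL number for each library, rising from C57BL/6 for NC1 to C57BL/12 for HC4, so the strain of each library was taken as unresolved. The number of mice behind each library is not stated, so p-values measure only the spread between these libraries.

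Library totals ran from 14527445 to 23388710 reads, and a single read was worth 0.0428 to 0.0688 RPM. NC3 stood apart from the other libraries and held the lowest value of the 7 for 49% of genes that averaged 1 RPM or more. The labels name Pax7+ stem cells, but Pax7 ranged from 4.34 RPM (NC3) to 268 RPM (NC1), and the summed level of 10 satellite cell markers from 95.2 to 3455 RPM in normocapnia and from 375 to 1177 RPM in hypercapnia. The 12 macrophage markers summed to 12297 to 35046 RPM and 20132 to 25062 RPM respectively, so macrophage RNA was abundant in every library. In bulk samples such as these, fewer cells of a type and less RNA per cell cannot be told apart. The Y-linked transcript Ddx3y was read in NC3, HC3 and HC4, while Xist, the RNA of the inactive X chromosome, was abundant in the other 4 libraries, so both sexes were present in both groups.

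Cells take up glucose through transporters of the Slc2a (GLUT) family, and hexokinases trap it as glucose 6-phosphate. From there it runs down glycolysis to pyruvate and lactate, with phosphofructokinase as the main controlled step, or into the pentose phosphate pathway, which makes NADPH and the ribose of nucleotides. Satellite cells are known to turn toward glycolysis when they leave quiescence, and inflammatory macrophages rely on it as well. Glucose 6-phosphate is also a signal: it brings the transcription factors Mlxip (MondoA) and Mlxipl (ChREBP), each paired with Mlx, to genes such as Txnip and Arrdc4, whose products lower glucose uptake.

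Of the 35 genes, 4 were higher in hypercapnia, 2 hexokinases of 3 and 2 of the 7 genes of upper glycolysis, and none was lower by the test used here. The test was limma on log2(RPM + 1) over all 23930 genes, and a gene was called at an unadjusted p under 0.05 with a fold above 1.5. By this rule 4 of the 35 members were called, all higher: Hk2, Hk3, Pfkl and Aldoc. Over all genes 2.57% were called, 1.43% higher and 1.14% lower, and of those averaging 1 RPM or more 4.75% were called, 2.66% higher. The groups did not overlap for 6 members, the 4 above with Pkm and Mlx, each higher in hypercapnia, against 4.09% of genes at 1 RPM or more and 2.53% of all genes that were apart in this direction (2.3% of all genes were apart and lower, 4.83% in either direction). None of the 35 passed Benjamini-Hochberg adjustment over all genes (lowest adjusted p 0.492 in limma). An unadjusted p under 0.05 was reached by 7 members, against 4.66% of all genes and 7.58% of those at 1 RPM or more. On whole reads edgeR with a filter and DESeq2 each called 3 members, Hk3, Pfkl and Aldoc (6.03% and 6.25% of the genes each tested), and edgeR without a filter called 2, Hk3 and Pfkl. None of these gave a member after adjustment, by which DESeq2 passed 0.139% of genes.

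**Figure D1:**
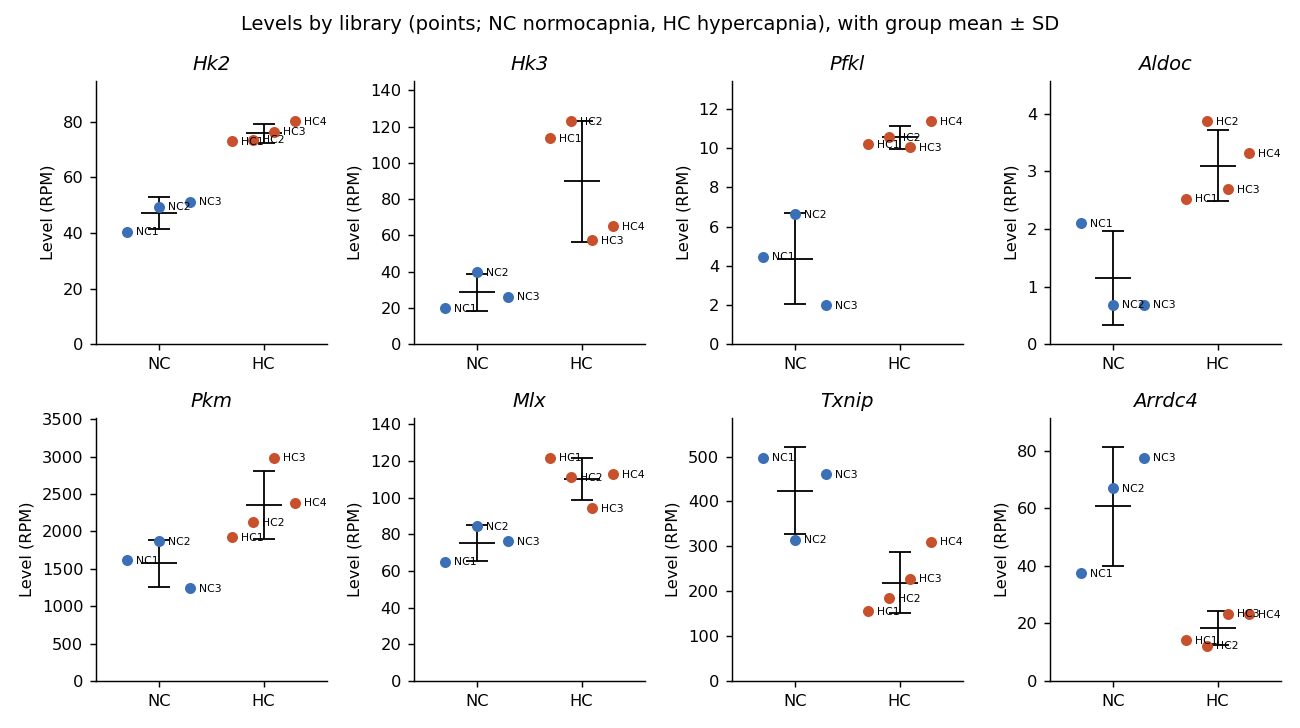
Levels (RPM, vertical axes from 0) of 8 genes in each library, with normocapnia (NC) in blue, hypercapnia (HC) in red and black bars for the group mean ± SD. In each of the 6 members shown, Hk2, Hk3, Pfkl, Aldoc, Pkm and Mlx, the 4 hypercapnia points lie above the 3 normocapnia points, whereas for Txnip and Arrdc4 they lie below.

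Of the whole list, 26 of the 35 members had a fold change above 0 and 9 below, with a median log2 fold change of 0.33. Without NC3 the counts were 19 and 16, and in DESeq2 21 and 14. For genes at 1 RPM or more this median was 0.16, and 62.1% of them were above 0. Both medians depended on NC3: without it they fell to 0.04 for the members and -0.07 for those genes. Without NC1 they were 0.55 and 0.36. Scaling moved them too, to 0.22 and 0.04 with median-of-ratios scaling and to 0.25 and -0.01 with quantile normalization, so that the members' median stayed 0.11 to 0.25 above that of all genes at 1 RPM or more across the settings. NC3 was the lowest library for 18 of the 35 members (51.4%), a share close to the 49% of genes at 1 RPM or more.

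**Figure D2:**
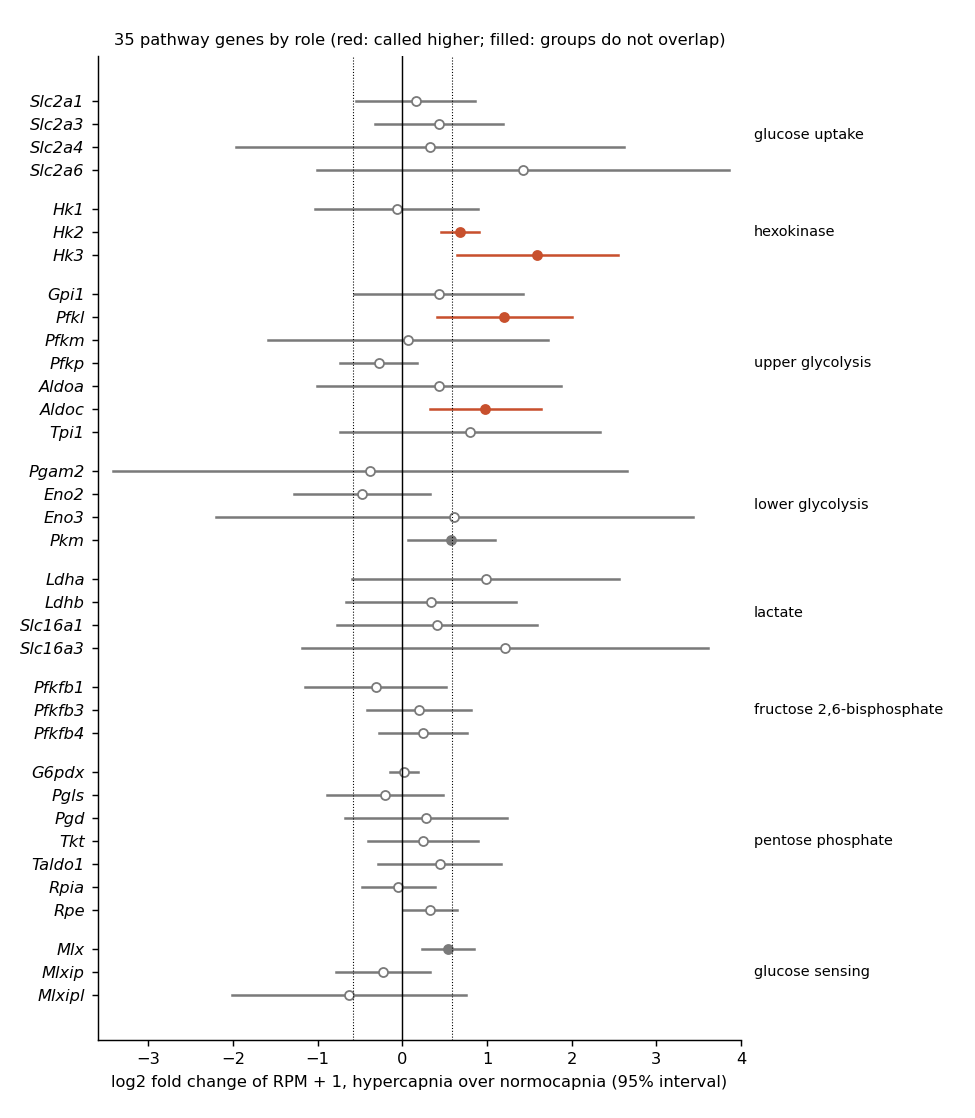
Log2 fold change of RPM + 1, hypercapnia over normocapnia, for the 35 members in groups by role. Points are limma estimates and lines their 95% intervals, red marks the 4 genes called higher, filled points mark the 6 whose groups do not overlap, and dotted lines mark a fold of 1.5. Intervals are narrow for G6pdx and Hk2 and wide for Pgam2, Eno3, Slc2a6 and Slc16a3.

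**Figure D3:**
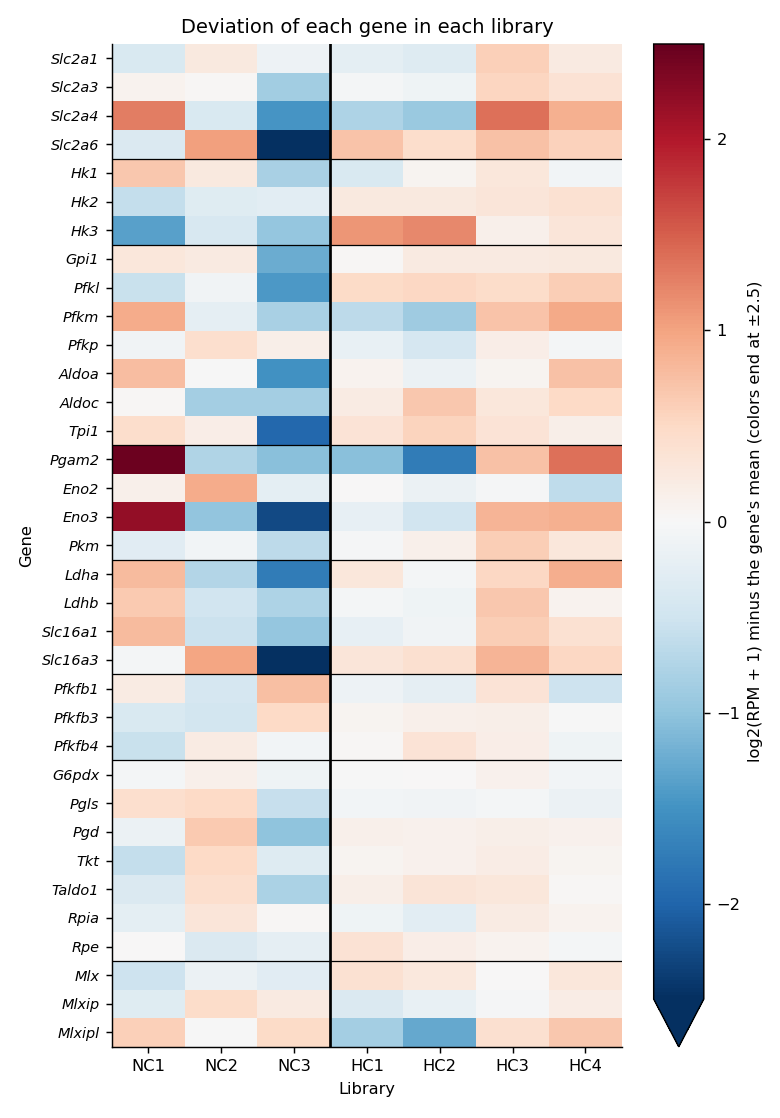
Deviation of log2(RPM + 1) from each member's mean, with libraries in columns (normocapnia left of the black line), members in rows and thin lines between roles. NC3 is blue in most rows, most deeply for Slc2a6 and Slc16a3, while the rows of Hk2, Hk3 and Pfkl are blue in all 3 normocapnia columns and red in all 4 hypercapnia columns.

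Of the 3 hexokinases, Hk2 and Hk3 were higher in hypercapnia and Hk1 was not called. Hk2, the inducible form of muscle and growing cells, measured 40.5, 49.5 and 51.2 RPM across NC1 to NC3, then 73.1, 73.5, 76.4 and 80.2 RPM across HC1 to HC4. All hypercapnia libraries lay above all normocapnia libraries, and the values within each group were close together (47.1 ± 5.76 RPM, SD, n = 3, against 75.8 ± 3.29 RPM, n = 4). Its log2 fold change was 0.68 (SE 0.09, 95% interval 0.46 to 0.91; limma adjusted p = 0.492), the smallest adjusted p of the members. The fold was near the threshold, and its call did not hold without NC1 (0.58), after median-of-ratios scaling (0.54), by edgeR with a filter (0.52) and without (0.54), or by DESeq2 (0.47).

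Hk3, a hexokinase known mainly from myeloid cells, measured 19.9, 39.6 and 26.3 RPM versus 114, 123, 57.4 and 65.1 RPM. The groups were apart, with HC1 and HC2 well above HC3 and HC4. The log2 fold change was 1.59 (SE 0.38, 95% interval 0.64 to 2.54; limma adjusted p = 0.809), and the call held in each of the 18 alternatives run (1.37 to 1.85). Of the 12 macrophage markers, the surface protein Adgre1 (F4/80) was the single one called, also higher, at 109, 149 and 70.5 RPM versus 392, 429, 151 and 184 RPM, highest in the same 2 libraries as Hk3. HC1 and HC2 are also the hypercapnia libraries with Xist and without Y-linked transcripts, so that within hypercapnia this split and sex cannot be told apart. The summed macrophage markers of the hypercapnia libraries lay inside the normocapnia range, but this sum is largely Lyz2 (8354 of 12297 RPM in NC1, 29108 of 35046 RPM in NC3). In the same list Cd68, Mrc1, Fcgr1 and C1qb also had their highest values in HC1 and HC2. Lyz2, Csf1r, Itgam and Mertk had fold changes slightly below 0. Within that list C1qa stayed below 1 RPM in every library, while C1qb ran from 158 to 1061 RPM and C1qc from 0.07 to 16.0 RPM. The part of these cells in the Hk3 difference was not tested.

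Hk1, the form found in most tissues, measured 57.7, 42.4 and 19.96 RPM versus 27.1, 37.3, 43.4 and 33.8 RPM, with the hypercapnia values inside the normocapnia range (log2 fold change -0.07, 95% interval -1.03 to 0.89). As a ratio of RPM + 1 within a library, Hk3 over Hk1 was higher in each hypercapnia library than in each normocapnia library. The margin was narrow, with log2 ratios of 0.381 in NC3 and 0.396 in HC3. The log2 ratio was -0.40 ± 0.97 (SD, n = 3) against 1.26 ± 0.74 (n = 4), a difference of 1.66 (exact permutation test, two-sided, p = 0.0571, 0.514 after Benjamini-Hochberg adjustment over 9 ratios). With 3 against 4 libraries this two-sided test cannot go below 0.0571. For Hk2 over Hk1 the groups overlapped (difference 0.75, exact permutation p = 0.229).

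The promoters of the hexokinases called higher are shown with the letters ACGTG marked, the core of the element bound by hypoxia-inducible factors and of many E-boxes. They come from RefSeq on GRCm38.p6 and run from 250 bases before to 50 bases after the annotated start, with each match on either strand in capitals. Hk2 lies on the minus strand (chr6:82774405-82774704) and has matches that begin 226 and 52 bases before the start. Hk3, also on the minus strand (chr13:55021336-55021635), has 1 that begins 156 bases before it.
Hk2: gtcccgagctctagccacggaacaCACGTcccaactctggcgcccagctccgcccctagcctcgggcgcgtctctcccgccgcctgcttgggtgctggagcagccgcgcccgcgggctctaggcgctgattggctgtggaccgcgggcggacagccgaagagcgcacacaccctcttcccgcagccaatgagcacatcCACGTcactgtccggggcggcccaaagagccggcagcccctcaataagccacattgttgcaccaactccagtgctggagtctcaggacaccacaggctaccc
Hk3: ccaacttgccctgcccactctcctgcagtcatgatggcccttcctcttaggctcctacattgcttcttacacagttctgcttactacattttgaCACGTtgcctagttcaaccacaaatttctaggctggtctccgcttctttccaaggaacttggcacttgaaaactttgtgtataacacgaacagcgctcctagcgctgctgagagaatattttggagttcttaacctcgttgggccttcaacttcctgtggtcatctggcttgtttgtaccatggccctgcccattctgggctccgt
These letters occur in 45.5% of the 33 members that have a promoter in the RefSeq table and in 21.8% of all 27025 genes there, and CACGTG, which contains the core, in 18.2% and 8.09%. A match describes the sequence and shows no binding, and the letters do not set the called genes apart. Hk1, which was not called, holds ACGTG 2 times in 1 of its 2 promoters, Aldoc holds it 1 time in 1 of 2, and Pfkl has neither motif in its window.

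Past the hexokinases, Pfkl and Aldoc were called among the 7 members of upper glycolysis, and 6 of these 7 had a fold change above 0. Pfkl, the liver-type subunit of phosphofructokinase, measured 4.46, 6.63 and 1.996 RPM across NC1 to NC3, then 10.2, 10.6, 10.1 and 11.4 RPM across HC1 to HC4. The hypercapnia libraries were nearly equal, and the normocapnia libraries spread over a wider range below them (log2 fold change 1.21, SE 0.32, 95% interval 0.41 to 1.998; limma adjusted p = 0.836). Aldoc, the aldolase best known from brain, stood at 2.10, 0.68 and 0.69 RPM versus 2.52, 3.87, 2.69 and 3.32 RPM (log2 fold change 0.98, SE 0.26; limma adjusted p = 0.852). Its levels were low, at 10 to 77 reads per library, and its call was lost in 4 of the 18 alternatives, among them a pseudocount of 5 RPM (0.40), quantile normalization (0.62) and edgeR without a filter (1.44). The call of Pfkl was lost in 1 of the 18.

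The other phosphofructokinase subunits did not follow Pfkl. Pfkm, the muscle subunit, measured 39.1, 16.9 and 10.9 RPM versus 12.4, 10.4, 33.3 and 39.3 RPM (log2 fold change 0.07), and Pfkp, the platelet subunit, 59.5, 85.3 and 70.1 RPM versus 55.4, 47.1, 71.4 and 61.6 RPM (-0.28). Groups overlapped for both. The ratios of Pfkl and of Pfkp to Pfkm also overlapped (differences of 1.14 and -0.35, exact permutation p = 0.229 and 0.514).

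Gpi1, which turns glucose 6-phosphate into fructose 6-phosphate, Aldoa, the main muscle aldolase, and Tpi1, which interconverts the triose phosphates, had log2 fold changes of 0.43, 0.43 and 0.80, none called. In each of these NC3 was the lowest library. Gpi1 was 206 RPM there and 499.8 to 593 RPM in the other 6 libraries, and Tpi1 34.4 RPM there and 152 to 203 RPM elsewhere. Without NC3 the log2 fold changes of Gpi1, Aldoa and Tpi1 were -0.07, -0.19 and 0.04.

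In lower glycolysis 4 members were measured, and none was called. Pkm, pyruvate kinase, the step that yields pyruvate, came close: 1616, 1867 and 1241 RPM versus 1922, 2127, 2984 and 2382 RPM. Groups were apart by a small margin between NC2 and HC1, and its fold of 1.49 was just under the threshold (log2 fold change 0.58, SE 0.21; limma adjusted p = 0.915). It was called without NC2 (0.71) or without HC1 (0.67). Its fold, though not its p, also passed without NC1 (0.61) or without HC2 (0.62). The table gives 1 amplicon for the gene, so the M1 and M2 splice forms of pyruvate kinase were not told apart here.

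Pgam2 and Eno3, the muscle forms of phosphoglycerate mutase and enolase, varied far more within the groups than between them. Pgam2 measured 127, 13.0 and 10.4 RPM versus 10.4, 6.03, 38.2 and 60.3 RPM (log2 fold change -0.38, 95% interval -3.42 to 2.65). Without NC1 its value was 0.73, and without NC3 it was -1.01. Eno3 measured 371, 40.2 and 16.0 RPM versus 70.2, 57.3, 145 and 150.3 RPM (0.62, 95% interval -2.20 to 3.43). The sign for Eno3 turned with the method, at -0.25 in edgeR with a filter and -0.29 both in edgeR without one and in DESeq2. NC1, HC3 and HC4 were the 3 highest libraries for both genes, as they were for Pax7 (268 RPM in NC1, 79.5 in HC3 and 59.6 in HC4) and for the muscle intermediate filament Des (1193, 382 and 345 RPM). The pattern was not particular to muscle genes. The same libraries were highest for the summed markers of endothelial cells (216, 491 and 381 RPM, with 45.5 to 96.4 RPM elsewhere), of neutrophils (221, 294 and 199 RPM, with 65.5 to 114 RPM elsewhere) and of fibro-adipogenic cells (1767, 1825 and 2230 RPM, with 935 to 1289 RPM elsewhere), and for the low lymphocyte and red blood cell markers. The summed myofiber markers followed it only in part, with NC1 (3062 RPM) and HC4 (1632 RPM) highest but NC2 (938 RPM) above HC3 (899 RPM). The part of any of these cell types in the values of Pgam2 and Eno3 was not tested. The same 3 libraries were highest for 8 members in all, also Pfkm, Slc2a4, Slc2a3, Ldha, Ldhb and Slc16a1, which is 22.9% of the members and near the 24.7% of genes at 1 RPM or more. Eno2, the neuronal enolase, stayed between 1.42 and 6.20 RPM (-0.48).

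**Figure D4:**
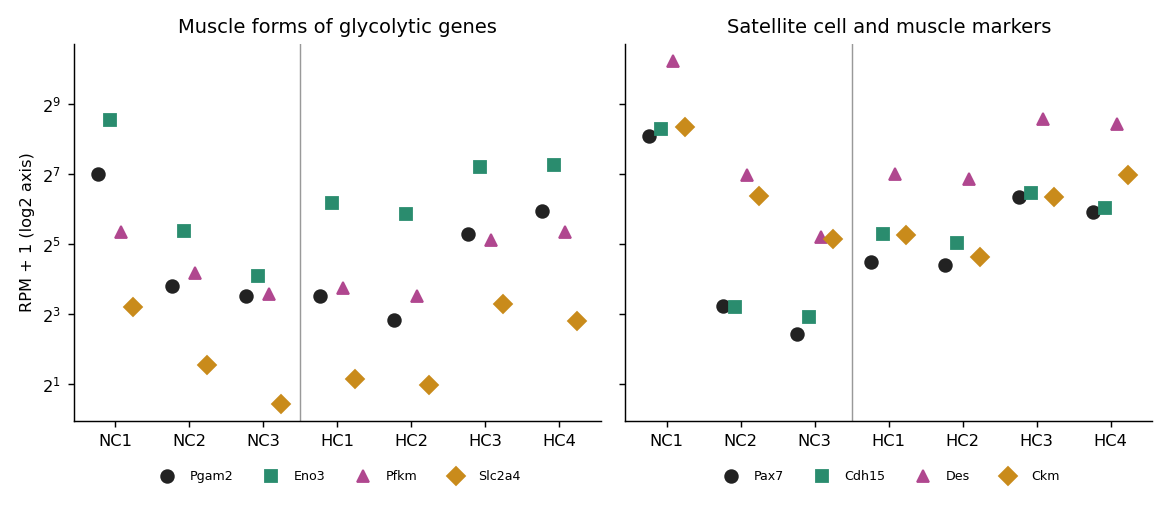
RPM + 1 on a log2 axis in each library for the muscle forms Pgam2, Eno3, Pfkm and Slc2a4 (left) and for the satellite cell and muscle markers Pax7, Cdh15, Des and Ckm (right), with points shifted sideways for clarity and a gray line between the groups. Each gene except Ckm, which is slightly higher in NC2 than in HC3, has its 3 highest values in NC1, HC3 and HC4.

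Lactate is made from pyruvate by lactate dehydrogenase and leaves or enters the cell with a proton through Slc16a1 (MCT1) and Slc16a3 (MCT4). All 4 members of this group had fold changes above 0 (0.34 to 1.21), and none was called. Ldha, the form that favors lactate, measured 1583, 548 and 271 RPM versus 1116, 883, 1308 and 1722 RPM, so that NC1 lay inside the hypercapnia range and NC2 and NC3 below it (log2 fold change 0.98, 95% interval -0.59 to 2.56). Slc16a3, the exporter of glycolytic cells, measured 27.4, 57.3 and 2.68 RPM versus 35.7, 37.9, 52.2 and 41.5 RPM. The large fold change (1.21) rested on NC3, and without it the value was 0.06. Ldha, Ldhb, Slc16a1 and Eno3 moved with both NC1 and NC3. Without NC3 their values were 0.39, 0.05, 0.04 and -0.34, and without NC1 they were called higher (1.66, 0.77, 0.92 and 1.89). With Hk3, Pfkl and Aldoc this made 7 members called without NC1, a setting in which calls over all genes rose from 615 to 1990 and 6.25% of all genes were called higher.

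None of the 4 glucose transporters was called. Slc2a1 (GLUT1), the basal transporter of most cells, measured 27.0, 42.0 and 32.1 RPM versus 29.6, 28.2, 54.1 and 41.8 RPM (log2 fold change 0.16, 95% interval -0.55 to 0.86). Slc2a3 (GLUT3), a high-affinity transporter, ran from 11.3 to 22.7 RPM in normocapnia and from 19.8 to 31.6 RPM in hypercapnia (0.43, and 0.12 without NC3). Slc2a4 (GLUT4), the insulin-responsive transporter of muscle, was low throughout, from 0.34 RPM (NC3) to 8.75 RPM (HC3), and its highest libraries were again NC1, HC3 and HC4 (0.33, and -0.31 without NC3). Slc2a6 (GLUT6), known from spleen and leukocytes, measured 6.20, 17.96 and 0.07 RPM versus 14.1, 11.5, 14.5 and 12.7 RPM. Its value in NC3 was a single read, below the floor of 3 reads (0.207 RPM) used for that library, and the fold change of 1.43 fell to 0.28 without NC3.

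Pfkfb enzymes set the level of fructose 2,6-bisphosphate, a potent activator of phosphofructokinase. Pfkfb3, the form with the highest kinase activity, ran from 49.0 to 95.7 RPM in normocapnia and from 67.2 to 74.4 RPM in hypercapnia (log2 fold change 0.20), and Pfkfb4 from 10.0 to 17.7 RPM and from 14.1 to 19.4 RPM (0.24). Pfkfb1, the liver and muscle form, stayed between 3.12 and 8.95 RPM (-0.32). None was called, and NC3 was the highest library for Pfkfb1 and Pfkfb3 instead of the lowest.

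The pentose phosphate members differed little between the groups, and none of the 7 was called (log2 fold changes -0.20 to 0.44). G6pdx, which commits glucose 6-phosphate to the pathway and lies on the X chromosome, measured 127, 142 and 120.5 RPM across NC1 to NC3, then 129.5, 131, 139.6 and 125 RPM across HC1 to HC4. The libraries with and without Xist did not separate, and the log2 fold change of 0.02 had the narrowest interval of the members (-0.15 to 0.19). Pgls, the lactonase that follows, ran from 44.1 to 93.3 RPM in normocapnia and from 59.2 to 63.9 RPM in hypercapnia (-0.20), and Pgd, the other step that makes NADPH, from 61.0 to 195 RPM and from 131 to 136 RPM (0.28). In both, as in Taldo1, NC2 was the highest library and NC3 the lowest.

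The branch that links pentoses back to glycolysis gave small differences as well. Tkt, transketolase, measured 161, 342 and 194 RPM versus 254, 261, 276 and 255 RPM (log2 fold change 0.25), and Taldo1, transaldolase, 104, 179.7 and 77.2 RPM versus 149, 168, 163 and 137 RPM (0.44). Rpia and Rpe, which interconvert the pentose 5-phosphates, had values of -0.05 and 0.32. Rpe measured 48.5, 37.3 and 41.1 RPM versus 61.8, 53.7, 51.0 and 46.4 RPM, with overlap between NC1 and HC4 alone. It reached an unadjusted p under 0.05 but not the fold threshold (limma adjusted p = 0.915). Without NC2, the highest normocapnia library for all of these genes but Rpe, Pgd (0.69) and Taldo1 (0.77) were called higher along with Slc2a6 (2.35), Pkm, Mlx and the 4 genes called with all libraries, 9 members in all, while calls over all genes rose to 1205 and 2.8% of all genes were called higher. Without NC3, Pgd was -0.14 and Taldo1 0.17.

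Of the glucose-sensing factors, Mlx was higher in hypercapnia with groups apart, and its partners were not. Mlx measured 65.0, 84.4 and 76.3 RPM versus 122, 111, 94.2 and 113 RPM (log2 fold change 0.54, SE 0.12, 95% interval 0.24 to 0.85; limma adjusted p = 0.752). Its fold of 1.46 was under the threshold, and it was called without NC2 (0.63) or without HC3 (0.62). Mlxip (MondoA), the partner prominent in muscle, measured 139, 239 and 202 RPM versus 134, 152, 169.7 and 196 RPM (-0.23). Mlxipl (ChREBP), the liver partner, was low, from 0.35 RPM (HC2) to 4.20 RPM (HC4), and gave -0.63 with an interval of -2.01 to 0.75.

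Txnip and Arrdc4, textbook targets of the Mlx complexes and not members themselves, were both lower in hypercapnia. Both encode alpha-arrestins that reduce glucose uptake. Arrdc4 stood at 37.5 RPM in NC1, 67.0 in NC2 and 77.5 in NC3, and at 14.2, 12.2, 23.4 and 23.2 RPM in the hypercapnia libraries in order. It had a log2 fold change of -1.67 (SE 0.36, 95% interval -2.57 to -0.77; limma adjusted p = 0.712), and its call held in each of the 18 alternatives. Txnip measured 497, 315 and 461 RPM across NC1 to NC3, then 155, 184, 228 and 311 RPM across HC1 to HC4. The groups were apart by a narrow gap between NC2 and HC4 (log2 fold change -0.97, SE 0.29, 95% interval -1.70 to -0.24; limma adjusted p = 0.911), while leaving out NC1 (-0.84) or NC3 (-0.90) ended the call. For both genes the lowest values were those of HC1 and HC2, the libraries with the highest Hk3 and those of hypercapnia without Y-linked transcripts.

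Their promoters are shown for the sugar-responsive element, a pair of E-boxes 5 bases apart. The search took CACGNG followed, after any 5 bases, by CACGNG again, on both strands, a form chosen with the Txnip element in mind. RefSeq (GRCm38.p6) places the Txnip window on the plus strand (chr3:96557707-96558006) and the Arrdc4 window on the minus strand (chr7:68749189-68749488). Capitals mark the paired element in Txnip, which begins 85 bases before the start, and CACGTG in Arrdc4, which begins 193 bases before it.
Txnip: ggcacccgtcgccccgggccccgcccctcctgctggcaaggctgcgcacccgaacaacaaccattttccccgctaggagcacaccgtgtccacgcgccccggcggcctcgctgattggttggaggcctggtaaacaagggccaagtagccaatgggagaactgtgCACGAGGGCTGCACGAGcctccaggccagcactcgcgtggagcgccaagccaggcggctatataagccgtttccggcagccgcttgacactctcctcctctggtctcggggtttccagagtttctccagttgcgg
Arrdc4: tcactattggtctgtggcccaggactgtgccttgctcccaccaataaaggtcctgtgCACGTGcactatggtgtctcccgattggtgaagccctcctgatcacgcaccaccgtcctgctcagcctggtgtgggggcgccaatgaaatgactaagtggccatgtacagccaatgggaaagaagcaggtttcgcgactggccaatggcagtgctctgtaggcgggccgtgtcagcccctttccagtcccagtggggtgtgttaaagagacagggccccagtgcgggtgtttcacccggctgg
The pair occurs in 0.0555% of the 27025 genes of the table, 15 in all, of which Txnip is 1, and in none of the 33 members with a promoter. Arrdc4 lacks the pair in this spelling within its window and holds the single CACGTG found in 8.09% of genes.

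Because both sexes were present, the 8 genes above were also compared among libraries of like sex, 2 against 2 without Y-linked transcripts and 2 against 1 with them. Hk2 differed by 0.70 and 0.60 on the log2 scale, Hk3 by 2.03 and 1.19, Pfkl by 0.82 and 1.97, and Aldoc by 0.86 and 1.24. Pkm differed by 0.22 and 1.10 and Mlx by 0.64 and 0.43. Txnip gave -1.22 and -0.79, and Arrdc4 -1.85 and -1.69. Since the groups of these 8 genes do not overlap, their direction within a class was fixed by how they were chosen, and only the sizes are of use. NC3 is the only normocapnia library of the second class. With sex as a term in limma, Hk2, Hk3, Pfkl and Aldoc were again the members called.

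A further 46 genes of glucose handling that are not members were listed as neighbors of the pathway: other isozymes, gluconeogenesis, phosphoglucomutases, further transporters and regulators of uptake. Of these, 19 had a mean under 1 RPM, among them the liver genes G6pc, Pklr and Fbp1 and the intestinal transporter Slc5a1, which was at 0 in all libraries. By the rule used above 1 was called higher and 2 lower (6.52% of the list, against 2.57% of all genes). Groups were apart for 4 of the 46, 2 higher and 2 lower, against 4.83% of all genes, with 2.3% lower. Of genes at 1 RPM or more, a level that 19 of the 46 do not reach, 7.72% were apart, with 3.63% lower. The 2 lower were Txnip and Arrdc4. The 1 higher was Galm, which interconverts the ring forms of galactose and glucose, at 13.0, 16.6 and 6.13 RPM versus 36.3, 39.1, 21.8 and 29.7 RPM (log2 fold change 1.41, SE 0.37; limma adjusted p = 0.836). The gene listed as Pgm1, a phosphoglucomutase, had groups apart, at 42.5, 50.7 and 12.7 RPM versus 85.9, 75.98, 52.5 and 58.8 RPM, but missed the threshold of p (1.12, 95% interval -0.16 to 2.39). Without NC3 its value was 0.52, and it was called higher in 6 of the 18 alternatives, namely quantile normalization (0.97), edgeR with and without a filter (0.96 for both), DESeq2 (0.93), sex as a covariate (1.29) and without NC2 (1.48). The symbols Pgm1 and Pgm2 have been exchanged in mouse gene naming, and which naming the panel follows was not checked. The median of the 27 genes of the list at 1 RPM or more was 0.30, beside 0.16 for all genes at that level.

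Finally, 9 of 12 planned isozyme ratios could be formed within libraries, the other 3 needing Pgam1 or Eno1. Beside Hk3 over Hk1, no ratio had groups apart. Aldoc over Aldoa differed by 0.54 on the log2 scale (exact permutation p = 0.286), Ldhb over Ldha by -0.64 (exact p = 0.171), Slc2a3 over Slc2a1 by 0.28 (exact p = 0.457), Slc16a3 over Slc16a1 by 0.81 (exact p = 0.4) and Pfkfb4 over Pfkfb3 by 0.05 (exact p = 0.857). After adjustment over the 9 ratios the lowest p was 0.514.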

How the data were processed

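The authors made Ion AmpliSeq Transcriptome Mouse libraries from sorted Pax7-GFP cells, sequenced these with the Ion S5 system and deposited an RPM value per gene, its reads scaled to a common library total. The labels name the Transcriptome Analysis Console; no aligner or genome build is given in the sources used here. A panel copies 1 short stretch per gene, so values compare a gene between libraries, not genes with each other, and reads shared with pseudogenes were not separated. Whole reads were recovered from the RPM steps (100% of values whole within 0.05 reads; tested on simulated data, 3 of 3 totals came back), and edgeR called 802 genes on them (DESeq2 1304).

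Differences were fitted over all genes, with no filter and a pseudocount of 1 RPM, on log2(RPM + 1), by limma (version 3.58.1, R version 4.3.3). This scale understates changes of low genes. The fits were tested on simulated data with large changes, in genes well above the floor and without an outlying library. That test does not cover changes near the fold threshold. Genes were called at an unadjusted p under 0.05 and a fold above 1.5, with Benjamini-Hochberg adjustment over all genes beside it. Ratios were compared by exact two-sided permutation over 35 splits, which cannot give a p below 0.0571. Alternatives were other pseudocounts (0.1 and 5 RPM), a filter at 1 RPM, median-of-ratios and quantile scaling, a prior variance that follows the mean, edgeR 4.0.16, DESeq2 1.42.0, a replicate block, leaving out each library and, added after seeing the data, sex as a covariate. Values of every library are given for members called or with groups apart and for chosen others. Members and lists were chosen with earlier results of these data known, so their directions are not independent evidence. Totals of 14527445 to 23388710 reads put the floor of 3 reads at 0.128 to 0.207 RPM, and floors and reads cover counting error only.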

Additional observations from a re-analysis of the deposited data

Results flagged for a closer look

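Gpi1, the isomerase that follows hexokinase, was lower in HC1 (499.8 RPM) than in the other 3 hypercapnia libraries (573, 569.9 and 578.6 RPM), and the gap to the nearest was most of the range of the 4. HC1 still lay inside the normocapnia range of 206 to 593 RPM. Of 38 genes examined this way in the hypercapnia group 1 stood out, and chance gives about 1 in 20.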

How the results depend on the processing

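The limits are the small groups, the spread among the normocapnia libraries and the mixture of cell types. All member calls in every setting were in the direction of higher in hypercapnia. The 4 members called became 2 in edgeR without a filter (Hk3 and Pfkl) and 4 to 9 when 1 library was left out, 7 without NC1 and 9 without NC2. The 3 neighboring genes called became 5 with quantile normalization, in edgeR without a filter, in DESeq2 and with sex as a covariate, and 3 to 5 when 1 library was left out, 5 without NC1. The single isozyme ratio with groups apart became 1 to 4 with 1 library left out, 4 without NC1, 4 without NC2 and 3 without NC3. Over all genes 615 were called (343 higher and 272 lower), 1049 in edgeR without a filter, 1304 in DESeq2, 1210 with sex as a covariate and 376 to 1990 with 1 library left out (1990 without NC1, 1205 without NC2, 385 without HC1 and 376 without HC2). The split was 294 higher and 508 lower in edgeR with a filter and 519 and 785 in DESeq2, which passed 29 genes after adjustment, none a member. The cause of these shifts was not tested. The members' median log2 fold change kept its sign throughout (0.04 to 0.55), and Hk3, Arrdc4 and Galm kept their calls in all 18 alternatives.

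Of the samples with the same replicate number, those of number 2 deviated together (correlation 0.50), while those of numbers 1 and 3 did not (-0.35 and -0.04). NC2 also correlated with HC1, which has another number (0.45). These few values cannot decide whether samples with the same number share anything else. With the replicate block 2 members were called, Hk2 and Hk3, but not Pfkl (1.17) or Aldoc (0.95), and over all genes 598. HC4 has no partner and drops out of that fit.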
